A study of Sus scrofa with 20 samples.

Results

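Genes of intestinal lipid absorption and lipoprotein handling were examined in the ileum mucosa of pigs that differed in residual feed intake (RFI), the part of feed intake not accounted for by growth and body composition. The group was headed by PLTP and held 9 further genes picked for their role: APOA1, APOA4, APOB, MTTP, FABP1, FABP2, CD36, DGAT1 and DGAT2. All 10 genes had at least 1 measured probeset, and together they had 20 of the 25092 measured probesets, which carried 10567 gene symbols. The platform listed 41 probesets under these 10 symbols, and for PLTP 1 of 12 held values. No filter on level or variance was applied, so every measured probeset of the 10 genes was kept.

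Mucosa scraped from the end of the ileum was hybridised to 1 snowball array (an expression microarray for pig transcripts) per pig, for 10 low RFI and 10 high RFI pigs of a Large White x Landrace cross, a little over 4 months of age at slaughter. The labels gave feed efficiency as high or low, and high feed efficiency was read as low RFI, as the study's methods define it. All signed differences rest on that reading. The pigs came from 5 sows, numbered 1406, 1410, 1411, 1417 and 1435, and in every litter each sex was represented by 1 low and 1 high RFI pig, which made 10 litter-by-sex pairs. Neither group received a treatment: the pigs were selected as divergent within litter and sex, with free access to feed, and a litter shared a pen, so that sow and pen cannot be told apart. Slaughter batch, a term of the study's own model, was not in the labels and was not used here. Differences are given on the log2 scale as low minus high RFI, a negative value meaning a lower level in low RFI pigs. Since the whole mucosa was measured, fewer cells of a type and less RNA per cell cannot be told apart.

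In the gut, dietary triglyceride is split in the lumen and its fatty acids enter the enterocyte, the absorptive cell of the villus. There they are bound by the small carrier proteins FABP1 and FABP2, built back into triglyceride by the acyltransferases DGAT1 and DGAT2, and loaded by the transfer protein MTTP onto APOB to form chylomicrons, which leave through the lymph. APOA1 and APOA4 are apolipoproteins that the enterocyte adds to these particles, CD36 is a membrane receptor for long-chain fatty acids, and PLTP moves phospholipids between lipoproteins and remodels high-density particles. Most of this takes place in the jejunum, and the ileum is better known for taking back bile acids.

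The arrays were alike in scale, with medians between 4.98 and 5.07 and pairwise correlations between 0.948 and 0.974 over all measured probesets. Markers of the labelled tissue were measured as follows. FABP6 and SLC10A2, the bile acid carriers that mark the ileum, had mean log2 values of 13.23 and 11.88, and all 6 measured enterocyte markers had means above 9. Probes differ in affinity, so these levels are a coarse description of the tissue, and the results below compare levels between pigs only.

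PLTP was the one gene of the group that passed the RFI test at an unadjusted p under 0.05, and it was lower in low RFI pigs. PLTP lies on chromosome 17 at 48089789 to 48101604 of Sscrofa11.1 in the RefSeq annotation, and was measured by SNOWBALL_042934_st. The position of the probes within the gene was not given in the sources used here. In the 10 low RFI pigs the lowest, median and highest log2 values were 3.14, 3.58 and 5.03, and in the 10 high RFI pigs they were 3.34, 4.45 and 5.52. The groups overlapped: 3 low RFI pigs lay below every high RFI pig, and 1 high RFI pig lay above every low RFI pig. The means were 3.79 ± 0.64 and 4.41 ± 0.60 (SD, n = 10 each), a difference of -0.62 with a standard error of 0.27 and a 95% interval from -1.20 to -0.04 (limma with sow as a term, p = 0.0376). In linear terms the level was 1.53-fold higher in high RFI pigs.

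The difference passed the study's threshold of an unadjusted p under 0.05 but not the Benjamini-Hochberg adjustment over all measured probesets (adjusted p = 0.9998). At the same threshold 3.99% of all probesets passed in either direction and 2.55% were lower in low RFI pigs, so 1 of 20 probesets was close to the background share. PLTP was lower in the low RFI pig in 8 of 10 pairs, and an exact two-sided permutation test over the signs of the paired differences gave p = 0.0996, where 0.00195 was the smallest value possible. With the litter-by-sex pair as a block in place of the sow, limma gave the same difference with p = 0.0584.

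Within males the PLTP difference passed the test, and within females it did not. The 5 low RFI males had 4.41 (sow 1406), 3.42 (1410), 3.18 (1411), 3.95 (1417) and 3.21 (1435), while their high RFI brothers had 4.64, 5.52, 4.61, 4.68 and 4.83 in the same order. Every high RFI male lay above every low RFI male, although the gap was narrow within the litter of sow 1406. How many of all probesets separate the male groups in this way was not counted. The means were 3.63 ± 0.53 and 4.86 ± 0.38 (SD, n = 5 each). The difference was -1.22 with a standard error of 0.33, or a 2.33-fold higher level in high RFI males (limma, p = 0.00223). Among all probesets 6.85% passed the same threshold within males. The exact permutation test over the 5 male pairs gave p = 0.0625, the smallest value that 5 pairs allow.

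In the females the 5 low RFI pigs had PLTP values of 3.14 (sow 1406), 5.03 (1410), 3.42 (1411), 3.74 (1417) and 4.37 (1435). Their high RFI sisters had 4.09, 3.34, 3.82, 4.29 and 4.24. The female groups overlapped widely, with the low RFI sister lower in 3 of 5 pairs, and the difference was -0.01 with a standard error of 0.33 (limma, p = 0.966). The difference between the sexes was itself tested: the RFI difference in males minus that in females was -1.21 with a standard error of 0.47 (limma, p = 0.0213, adjusted p = 0.822). A share of 5.86% of all probesets passed that test at an unadjusted p under 0.05. The litter of sow 1410 held both the most negative male pair (-2.10) and the most positive female pair (1.70), and without this litter the sex difference was -0.56 (p = 0.177). It also missed the threshold without the litter of sow 1411 (-1.25, p = 0.051) or of sow 1435 (-1.07, p = 0.0743).

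**Figure D1:**
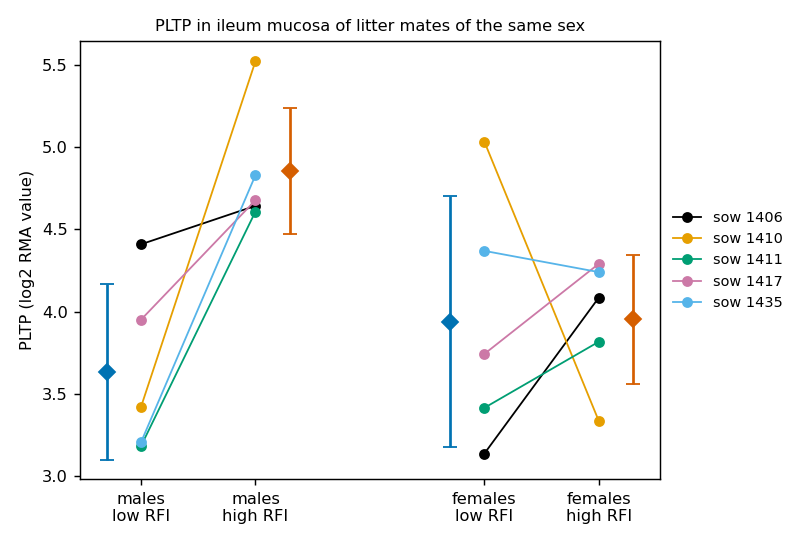
PLTP log2 values (y axis) of the 20 pigs by sex and RFI group, with a line joining the low and the high RFI pig of the same litter and sex, coloured by sow. Diamonds and bars are group means ± SD (n = 5). All 5 male lines rise from low to high RFI, from 3.63 to 4.86 on average, whereas the female lines cross and their means are 3.94 and 3.95.

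No litter difference of PLTP was detected. Its litter means rose from 3.76 ± 0.63 in the litter of sow 1411 over 4.07 ± 0.66 (1406), 4.16 ± 0.69 (1435) and 4.17 ± 0.41 (1417) to 4.33 ± 1.12 (1410) (SD, n = 4 each). No neighbours in this order differed beyond their spread (p between 0.480 and 0.992), nor did the lowest and the highest litter (0.57, standard error 0.43, p = 0.205). The F test over the 5 litters gave p = 0.753. RFI accounted for 21.6% of the variance of PLTP and litter for 8.10%, against medians over all probesets of 2.19% and 23.7%. The RFI share restates the RFI contrast given above and is no separate support for it.

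The pooled RFI difference of PLTP lay close to the threshold, and over all leave-outs of a pig or a litter it ranged from -0.80 to -0.49. The call was lost when the pigs of sow 1406, 1411, 1417 or 1435 were left out, with differences of -0.63, -0.54, -0.61 and -0.59 (p = 0.0643, 0.117, 0.0885 and 0.0837). It was also lost without any of 11 single pigs, among them all 5 high RFI males and 3 of the low RFI males, with differences between -0.61 and -0.49 and p between 0.0521 and 0.0828. The 3 others were the low RFI females of sows 1406, 1411 and 1417. Without the low RFI female of sow 1410, the pig with the high value of 5.03, the difference was -0.76 (p = 0.00897), and without the high RFI female of the same sow, at 3.34, it was -0.80 (p = 0.00307). Within males the call held under each of these leave-outs, with p of at most 0.0142.

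Markers of other cell types were read beside PLTP. ACTA2, the actin of smooth muscle, was lower in low RFI pigs (-0.62, limma, p = 0.0307), and COL1A1, a fibroblast collagen, was higher (0.39, p = 0.0193). The other 4 smooth muscle markers and the other 5 fibroblast markers did not pass the test. Among the former, DES (0.14) and TAGLN (0.31) had positive differences, while LMOD1 (-0.21) and MYH11 (-0.07) had negative ones. The mean of ACTA2 was 3.46, below those of TAGLN (6.25) and DES (6.15). Within males 4 of the 50 measured markers passed at an unadjusted p under 0.05 (limma), where 6.85% of all probesets passed. These were ACTA2 (-0.90, p = 0.0199), the enterocyte factor CDX2 (-0.35, p = 0.0162), and the T cell genes CD3G (0.47, p = 0.00419) and CD2 (0.30, p = 0.0357). The other enterocyte markers did not pass within males. VIL1 (0.10), MEP1B (0.08) and SLC5A1 (0.01) had positive differences there, CDH17 (-0.003) and MEP1A (-0.03) negative ones. The part of the 4 passing markers in the male PLTP difference was not tested. The mean of the 5 smooth muscle markers ranged from 4.64 to 5.80 in low RFI pigs and from 4.83 to 5.90 in high RFI pigs. With it as a covariate the PLTP difference was -0.60 (p = 0.0511). The mean of the 3 measured macrophage markers, cells that are also known to express PLTP, ranged from 5.23 to 5.96 in low and from 5.29 to 6.41 in high RFI pigs, with none of the 3 passing the RFI test. Its part in the PLTP difference was not tested. With the mean of the 6 enterocyte markers as a covariate the PLTP difference was -0.60 (p = 0.0559), and with that of the 6 fibroblast markers it was -0.63 (p = 0.0385).

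None of the other 19 probesets passed the RFI test, and their differences lay between -0.27 and 0.34 with a median of -0.07. Over the 20 probesets the median was -0.08, with 15 negative and 5 positive values, beside a median of -0.01 over all probesets. The negative values came from 7 genes and the positive ones from 4, with FABP1 in both. All 4 probesets of APOB and all 4 of DGAT2 were negative, so the values are not of separate genes. With 1 probeset per gene, 5532 of all 10567 genes had a negative difference. For the apolipoproteins, APOA1 differed by 0.20 (standard error 0.35) and 0.14 (0.13) on its pair of probesets. APOA4 differed by -0.15 (0.34) and -0.13 (0.12), and APOB by -0.13 to -0.03 over 4 probesets (p between 0.676 and 0.914). MTTP, measured by 1 probeset, differed by -0.09, with a 95% interval from -0.43 to 0.26. Its low RFI values ran from 9.56 over a median of 10.77 to 11.24 and its high RFI values from 10.01 over 10.80 to 11.05, so that the groups overlapped, with 1 low RFI pig below and 3 above the high RFI range.

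For the fatty acid binding proteins, FABP2 had the most positive difference of the group, 0.34 with a standard error of 0.34 (p = 0.331). Its low RFI values ran from 6.68 over a median of 9.46 to 10.23 and its high RFI values from 7.38 over 8.91 to 9.94. The lowest of these was the low RFI female of sow 1410, and without that pig the FABP2 difference passed the threshold with p = 0.0348. FABP1 differed by 0.08 (standard error 0.27) on SNOWBALL_023288_st and by -0.27 (0.19) on SNOWBALL_004797_st, which had a mean of 1.90, near the lowest 5% of all probesets (means under 1.75). Without the high RFI female of sow 1435 the latter passed with p = 0.043. CD36 was likewise measured low, with means of 2.68 and 2.14, and differed by -0.14 (0.22) and -0.27 (0.25).

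The triglyceride-forming enzymes did not differ by RFI in both sexes together. DGAT1, the acyltransferase of chylomicron triglyceride, had the narrowest interval of the group: its difference was 0.08 with a 95% interval from -0.12 to 0.27, and its 20 values lay between 8.88 and 9.54. DGAT2 differed by -0.15, -0.02, -0.14 and -0.06 on its 4 probesets (p between 0.541 and 0.943). The intervals of the 19 uncalled probesets leave room for differences of up to 1.05 in size, so these values do not show that the groups were alike.

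**Figure D2:**
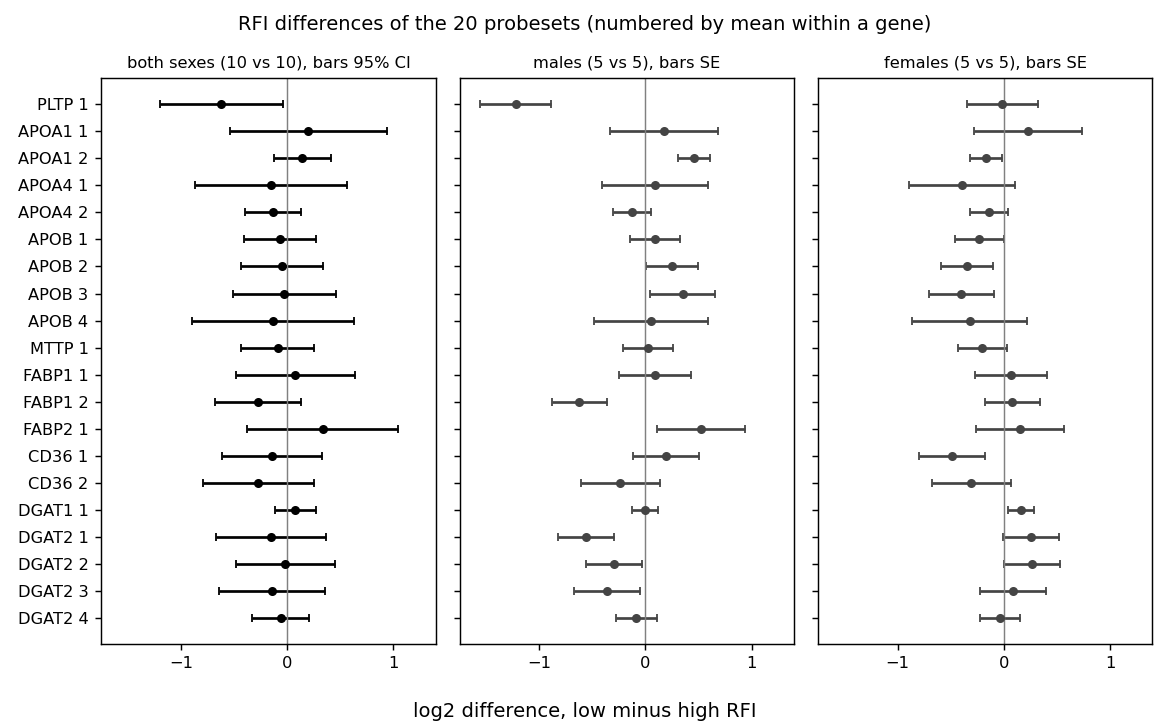
Log2 difference of low minus high RFI (x axis) for the 20 probesets (y axis, numbered by mean within a gene), in both sexes with 95% intervals (left) and within males and within females with standard errors (middle and right). Only the PLTP interval in the left panel leaves out 0, and in males the PLTP point lies at -1.22.

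Within males 4 of the 20 probesets, of 4 genes, passed at an unadjusted p under 0.05, where 6.85% of all probesets passed. Within females none did, where 3.34% of all probesets passed. Beside PLTP these were APOA1 (SNOWBALL_012488_st), DGAT2 (SNOWBALL_001552_st) and the low FABP1 probeset, which differed by -0.62 in males (p = 0.0294). The interaction with sex was passed by PLTP, APOA1 and DGAT2, 3 of 20 probesets, where 5.86% of all probesets passed, and by none after adjustment.

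APOA1, which neighbours APOA4 on chromosome 9 (44216481 to 44218360), was higher in low RFI males on that probeset. The low RFI males had 5.22 (sow 1406), 5.08 (1410), 5.42 (1411), 5.86 (1417) and 4.73 (1435), and the high RFI males had 4.98, 4.69, 4.77, 4.95 and 4.63. All 5 low RFI males exceeded their own brother, and 4 of them exceeded every high RFI male. The difference was 0.46 with a standard error of 0.15 (p = 0.00836), while that in females was -0.17 (p = 0.284), and the contrast between the sexes was 0.62 with a standard error of 0.21 (p = 0.0103, adjusted p = 0.822). The brighter APOA1 probeset, SNOWBALL_023293_s_st, did not share this pattern. It differed by 0.17 in males and 0.23 in females, and its correlation with the first over the 20 pigs was -0.04. Which of them follows the APOA1 transcript was not tested.

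DGAT2 (chromosome 9, 10032163 to 10066082) was lower in low RFI males on SNOWBALL_001552_st. The low RFI males had 7.18, 6.78, 6.59, 7.30 and 6.64 in the order of sows 1406, 1410, 1411, 1417 and 1435, and the high RFI males had 7.46, 7.43, 7.16, 7.20 and 8.05. The low RFI males of sows 1406 and 1417 lay above the lowest high RFI male, and the other 3 lay below all high RFI males. The difference was -0.56 with a standard error of 0.26 (p = 0.0489). In females it was 0.26 (p = 0.344), and the contrast between the sexes was -0.82 (standard error 0.37, p = 0.0433, adjusted p = 0.835). On the other 3 DGAT2 probesets the contrast was -0.56, -0.45 and -0.05 and passed on none, and with the mean of the 4 probesets it was -0.47 (p = 0.193). Without the litter of sow 1435 it was -0.46 (p = 0.27) and without that of sow 1411 -0.78 (p = 0.0962). Leaving out single pigs lost the call for 12 of the 20, with p of at most 0.0974.

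Some immune markers also passed the test of the RFI by sex interaction before adjustment. Of the 5 measured T cell markers, 3 passed it at an unadjusted p under 0.05, where 5.86% of all probesets did. These were CD3D (limma, p = 0.0476), CD3G (p = 0.0147) and CD2 (p = 0.0327). After adjustment 0 of all 25092 probesets passed. CD3G and CD2 were higher in low RFI males, as given above. The mean of the 5 T cell markers was 9.56 in low and 9.31 in high RFI males and 9.36 and 9.42 in the females. The mean of the 5 measured B cell and follicle markers was 6.23 in low and 6.63 in high RFI males and 6.93 and 6.48 in the females, with none of the 5 passing the interaction test. With that B cell mean as a covariate the sex contrast was 0.51 for APOA1 (p = 0.0376) and -1.19 for DGAT2 (p = 0.00204). The part of T cells was not tested.

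At an unadjusted p under 0.05, 5 of 20 probesets differed between the 5 litters, both of FABP1, the one of FABP2 and 2 of 4 of APOB, where 12.5% of all probesets did. No probeset of APOA1, APOA4, MTTP, CD36, DGAT1, DGAT2 or PLTP passed. None passed after adjustment, against 0.163% of all probesets (41 of 25092). Over the 20 probesets the median share of variance that litter accounted for was 32.9%, beside 23.7% over all probesets.

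FABP1, the liver-type carrier that the small intestine also makes (chromosome 3, 57850511 to 57854966), showed the widest spread between litter means among the 20 probesets. On SNOWBALL_023288_st the litter of sow 1406 had 7.82, 8.08, 7.84 and 9.53, that of sow 1411 had 9.71, 10.24, 9.24 and 10.07 and that of sow 1410 had 8.79, 10.30, 9.89 and 10.39 (high RFI female, high RFI male, low RFI female and low RFI male). In the same order, the litter of sow 1417 had 11.19, 11.27, 10.28 and 9.98, and that of sow 1435 had 10.26, 10.83, 10.87 and 11.20. Of the 4 pigs of sow 1406, 3 lay below all 16 pigs of the other litters. The means were 8.32 ± 0.82, 9.82 ± 0.44, 9.84 ± 0.73, 10.68 ± 0.65 and 10.79 ± 0.39 (SD, n = 4), a 5.56-fold range. The F test called the litters different before adjustment (p = 0.000134, adjusted p = 0.0591), and litter took 72.6% of the variance.

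Between neighbours in the FABP1 order only the step from sow 1406 to sow 1411 exceeded the spread (1.50, standard error 0.42, p = 0.00242, unadjusted for the pairs of litters compared). The later steps had p of 0.951, 0.0635 and 0.797. Without the litter of sow 1406 the F test still gave p = 0.0347. The adjusted p fell to 0.0225 without the low RFI male of sow 1406, the pig at 9.53, and to 0.0493 without the high RFI female of sow 1435. The low FABP1 probeset followed another order, with the lowest mean in the litter of sow 1410 (1.34) and the highest in that of sow 1435 (2.50) (F test, p = 0.00784), and its correlation with the bright one was 0.54. Without the litter of sow 1410 its p was 0.0559.

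FABP2, the intestinal-type carrier (chromosome 8, 104464342 to 104468059), had litter means of 7.97 ± 0.38 (sow 1406), 8.32 ± 1.54 (1410), 9.09 ± 0.77 (1411), 9.35 ± 0.24 (1417) and 9.59 ± 0.43 (1435), a 3.07-fold range (F test, p = 0.0331, adjusted p = 0.350). In the litter of sow 1410 the 4 values were 6.68 and 7.38 in the females and 9.26 and 9.95 in the males, so this litter alone spanned the means of all others. No neighbouring litters differed (p between 0.164 and 0.665), while the ends of the order did (1.62, standard error 0.53, limma, p = 0.00740). That p is unadjusted for the pairs of litters compared, and the ends were picked by their observed means. The F test of FABP2 missed the threshold without the litter of sow 1406, 1417 or 1435 (p = 0.193, 0.0579 and 0.0963) and without any of 8 single pigs (p of at most 0.0765).

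APOB, the structural protein of the chylomicron (chromosome 3, 117250096 to 117316200), had its lowest mean in the litter of sow 1406 on all 4 probesets. On SNOWBALL_005117_st the means were 10.05 ± 0.59, 10.35 ± 0.77, 10.78 ± 0.41, 10.99 ± 0.51 and 11.20 ± 0.29 in the order of sows 1406, 1410, 1411, 1435 and 1417 (F test, p = 0.0357). SNOWBALL_034098_st gave p = 0.0411, and the other APOB probesets gave p = 0.109 and p = 0.262. Without the litter of sow 1406 the former p-values were 0.148 and 0.212, and without that of sow 1417 they were 0.117 and 0.0877. Leaving out single pigs lost the call for 7 pigs on the former probeset (p of at most 0.0977) and for 12 on the latter (p of at most 0.129). MTTP, its loading partner, had the same order with means from 10.36 ± 0.37 (1406) to 10.98 ± 0.20 (1417), but its F test gave p = 0.129. DGAT2 was lowest in the litter of sow 1411 on all 4 probesets, and none of them passed (p between 0.0669 and 0.527).

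**Figure D3:**
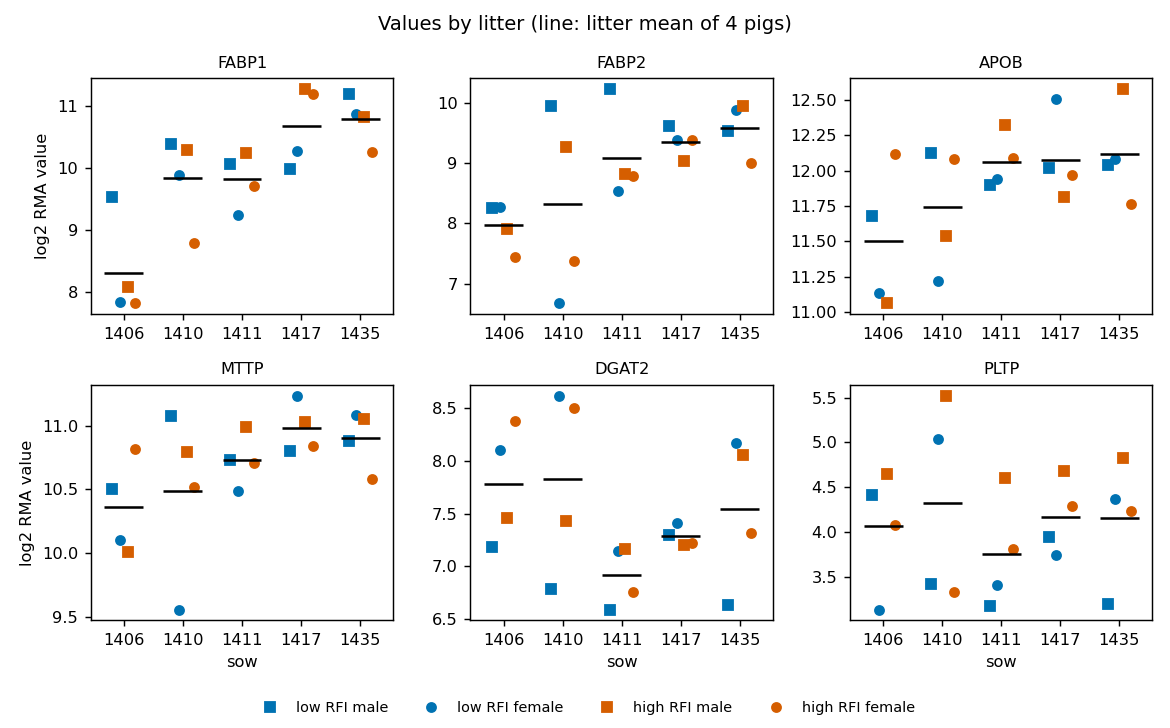
Log2 values (y axis, own scale per gene) of the probeset with the highest mean for FABP1, FABP2, APOB, MTTP, DGAT2 and PLTP in the 4 pigs of each sow (x axis), blue for low and orange for high RFI, squares for males and circles for females, with the litter mean as a line. The FABP1 means climb from 8.32 (sow 1406) to 10.79 (sow 1435), and the PLTP means stay between 3.76 and 4.33.

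Fibroblast markers moved the opposite way between the litters. All 6 of them (COL1A1, COL1A2, COL3A1, DCN, LUM and PDGFRA) passed the litter test at an unadjusted p under 0.05, where 13.5% of all genes did. None of them passed after adjustment. Their mean fell from 7.36 in the litter of sow 1406 over 6.40 (1410), 6.22 (1411) and 5.40 (1417) to 5.38 (1435). Over the 20 pigs that mean had correlations of -0.82 with MTTP, -0.78 with APOB, -0.77 with FABP1, -0.72 with FABP2 and 0.01 with PLTP, given as a description of values from the same arrays. Other marker means had similar correlations: lymphatic endothelium had -0.81 with MTTP and -0.77 with APOB, smooth muscle -0.76 and -0.73, and macrophages -0.76 and -0.74. The B cell and follicle mean had -0.66 and -0.68. Positive values were found for the enterocyte mean: 0.67 with MTTP, 0.75 with APOB, 0.50 with FABP1 and 0.37 with FABP2. The mean of the enterocyte markers moved less, between 11.12 (sow 1406) and 11.39 (sow 1417). Of these 6 markers 2 (MEP1A and MEP1B) passed the litter test before adjustment and none after it. With the fibroblast mean as a covariate none of the 20 probesets passed the litter test, and p was 0.0987 for FABP1 and 0.708 for FABP2. The litters differ in the covariate itself, so such a fit cannot tell the 2 apart. With the smooth muscle mean as a covariate 2 probesets passed, FABP1 among them (p = 0.0175).

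**Figure D4:**
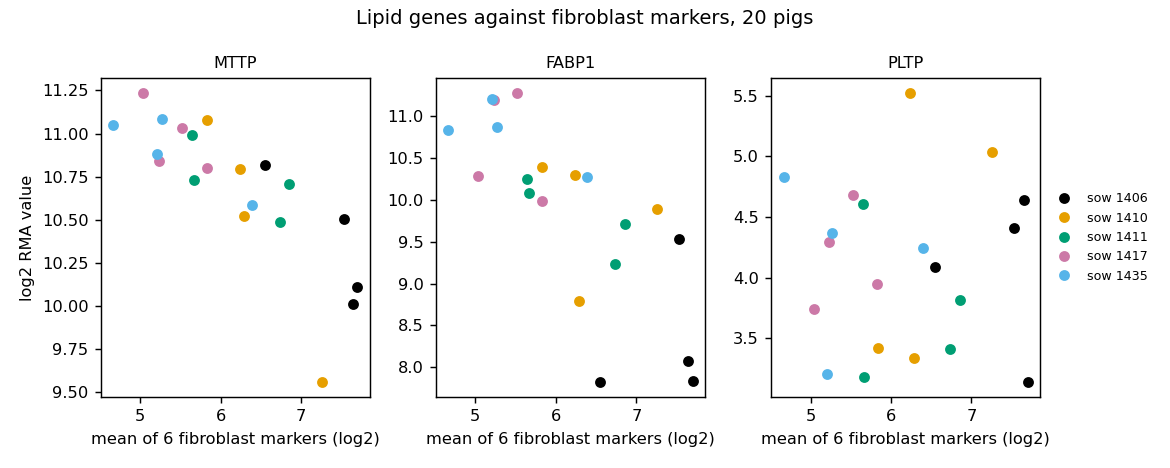
Log2 values of MTTP, FABP1 and PLTP (y axes, own scale) against the mean log2 value of 6 fibroblast markers (x axes) in the 20 pigs, coloured by sow. MTTP and FABP1 fall as the markers rise (r = -0.82 and -0.77), with the litter of sow 1406 at the right, and PLTP shows no slope (r = 0.01).

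Males and females differed in 4 of the 20 probesets, of 3 genes, at an unadjusted p under 0.05, where 7.15% of all probesets did, and none passed after adjustment. FABP2 was higher in males (9.26 ± 0.76 against 8.47 ± 1.03, SD, n = 10 each, difference 0.78, standard error 0.29, p = 0.0152), and so was FABP1 on its bright probeset (0.60, standard error 0.23, p = 0.0192). DGAT2 was lower in males on SNOWBALL_001552_st (7.18 ± 0.44 against 7.76 ± 0.66, difference -0.58, standard error 0.21, p = 0.0125) and on SNOWBALL_022893_st (-0.49, p = 0.0213). The male and female ranges overlapped for each of these genes. Without the litter of sow 1410 none of the 20 probesets passed, with 0.33 for FABP2 (p = 0.11) and -0.36 for DGAT2 (p = 0.109), and without that of sow 1406 a single probeset passed. FABP1 also missed the threshold without the litter of sow 1411 (0.58, p = 0.0574).

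Several pairs of the chylomicron assembly genes varied together from pig to pig, while the correlations of PLTP with these genes were weak. Over the 20 pigs, for which 45 pairs of the 10 genes were computed on the probeset with the highest mean, APOB and MTTP had r = 0.83 and rho = 0.74 (permutation p = 1e-05, the smallest 100000 resamples can give, and 0.00034). Without the 2 pigs farthest from the APOB median r was 0.76, and with the litter means taken out it was 0.77. APOA4 had r = 0.63 with APOB (rho = 0.50, permutation p = 0.00286 and 0.0277), and 0.73 with the litter means taken out. With MTTP the values were lower: r = 0.58 and rho = 0.35 for APOA4 (permutation p = 0.00674 and 0.131). For APOA1 with MTTP they were r = 0.42 and rho = 0.46 (permutation p = 0.069 and 0.0414). APOA1 and DGAT1 had r = 0.76 and rho = 0.74 (permutation p = 0.00011 and 0.00023, r = 0.68 without the 2 farthest pigs). These p-values treat litter mates as independent and are unadjusted.

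FABP1 and FABP2 had r = 0.67 and rho = 0.72 (permutation p = 0.00157 and 0.00055), which was 0.41 with the litter means taken out. FABP2 and MTTP had r = 0.74 and rho = 0.70 (permutation p = 0.00031 and 0.00057). The most negative pair was FABP2 and DGAT2, with r = -0.60 and rho = -0.47 (permutation p = 0.00498 and 0.0379). It was -0.60 with the litter means taken out but -0.35 without the 2 pigs farthest from the FABP2 median, so it rested in part on those pigs. FABP2 was higher and DGAT2 lower in males, as given above, and the part of sex in this correlation was not tested. FABP1 and DGAT2 had r = -0.41, or -0.54 with the litter means taken out. For PLTP the 9 correlations lay between -0.23 and 0.28, with rho of at most 0.35 (permutation p of at least 0.135).

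**Figure D5:**
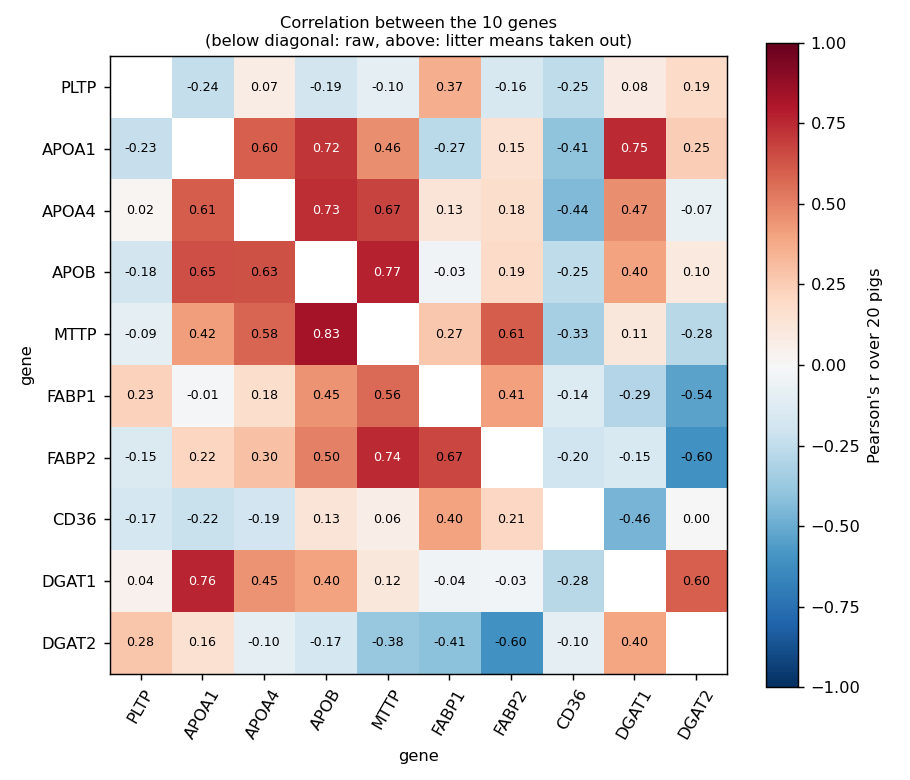
Pearson's r between the 10 genes over 20 pigs, on the probeset with the highest mean, as log2 values below the diagonal and with the litter means taken out above it (colour scale from -1 to 1). APOB and MTTP stand at 0.83 and 0.77, APOA1 and DGAT1 at 0.76 and 0.75, FABP2 and DGAT2 at -0.60 on both sides, and the PLTP row and column stay between -0.25 and 0.37.

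The wider lipid pathway showed no further RFI calls. Of 94 genes on 7 lists, 69 were measured, and 59 of these were outside the group described above. At an unadjusted p under 0.05, with 1 probeset per gene, PLTP alone was lower in low RFI pigs and none of the 69 was higher, where 3.73% of all genes passed in either direction. The median difference over the 69 genes was 0.02, beside -0.01 over all genes. The nearest to the threshold were ACADM, an enzyme of mitochondrial fatty acid oxidation (0.48, standard error 0.23, p = 0.0541, at low means of 1.95 and 1.47), and PPARGC1A, a coactivator of oxidative metabolism (0.19, standard error 0.10, p = 0.0583).

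By list, none of 7 fatty acid uptake genes, 12 triglyceride synthesis genes, 14 chylomicron assembly genes, 8 sterol transport genes, 11 lipid droplet and oxidation genes or 8 regulators passed the RFI test, and 1 of 9 lipoprotein remodelling genes did, PLTP itself. The genes with the smallest p in the lists not yet named were LPIN2, a phosphatidate phosphatase of triglyceride synthesis (0.15, p = 0.120), SEC23B, of the vesicle coat that exports lipoproteins from the endoplasmic reticulum (0.07, p = 0.328), and ABCG1, a sterol exporter (0.23, p = 0.145). By litter, 14 of the 69 genes passed at an unadjusted p under 0.05, beside 13.5% of all genes, and none after adjustment. Sterol transport had the most, with 4 of 8 (SOAT1, ABCA1, ABCG5 and SCARB1). ABCG5, which returns plant sterols to the gut lumen, was lowest in the litter of sow 1406 (7.84) and highest in that of sow 1417 (8.83). PPARGC1A had the smallest litter p of the lists (p = 0.000101, adjusted p = 0.0538), with a mean of 7.26 for the pigs of sow 1410 and 8.27 for those of sow 1417.

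The named genes most like each member over the 20 pigs were sought among 10566 genes, with 1 probeset each, and are given as a description without a test. For PLTP they were KCNA10 (r = 0.81, or 0.84 with the litter means taken out), LOC100514559 (0.76), CTSV (0.73), CACHD1 (0.73) and TRPM8 (0.72). Of these, KCNA10 and TRPM8 were lower in low RFI pigs at an unadjusted p under 0.05 (limma, -0.26, p = 0.0269, and -1.02, p = 0.0148). At that threshold 3.73% of all genes passed in either direction. Both were picked for their likeness to PLTP over the same pigs, so their differences are no separate support for that of PLTP. For MTTP the nearest was SEC23A, the sister of SEC23B in the same coat (r = 0.91), and for APOB they were LOC100157285 (0.93) and MEP1B, a brush border protease (0.90). The next for MTTP were FBXO48 (0.90) and LOC100157285 (0.89), and for APOB NDFIP2 (0.86). FABP1 and FABP2 shared DAB1 (0.82 and 0.83), which differed by litter before adjustment (F test, p = 0.00450). DAB1 was picked for its likeness to genes that varied by litter, so that p is no separate result. Beside it stood BRAP (0.83) and LOC100525756 (0.83) for FABP1 and UBD (0.82) and FBXO48 (0.82) for FABP2. The nearest to DGAT1 was FTL, the ferritin light chain (0.82), followed by GABARAPL1 (0.81) and AGPAT2, an earlier enzyme of the same triglyceride pathway (0.81, or 0.93 with the litter means taken out). For DGAT2 they were NLRP6 (0.84), KAT8 (0.83) and CENPV (0.80), and for APOA1 PRR13 (0.82), ATP6V1D (0.79) and TRAPPC4 (0.78). For APOA4 they were FAM166A (0.80), LAMP2 (0.75) and DIRC2 (0.74), and for CD36 OTUD3 (0.74), TNRC6B (0.70) and PCLO (0.69).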

How the data were processed

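The values used were the deposited log2 values of the 20 ileum arrays. The authors grouped the probes by a layout of their own made on Sscrofa11.1 (Ensembl and NCBI annotation), ran a quality check and normalised the intensities by the robust multichip average (background correction, quantile normalisation and median polish), 1 array per pig and no pooling. The submitters' processing notes name GCOS 1.1.1. The labels and the methods name different RNA and labelling kits. Of 47845 rows, 25092 held values on all 20 arrays and 22753 were empty. Of the filled rows 16361 carried 1 gene symbol, none several and 8731 none, and 331 rows had their symbol updated through RefSeq synonyms. What limits the precision was not tested. Caecum arrays and microbial data were not analysed here.

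Groups, sow and sex came from the labels. All filled probesets were fitted with limma 3.58.1 (R 4.3.3), with RFI group and sow as terms (14 residual and 3.07 prior degrees of freedom), and no filter, since the study's filter on mean and standard deviation would have dropped 5 of the 20 probesets. Calls used an unadjusted p under 0.05, as in the study, with Benjamini-Hochberg adjustment over all filled probesets beside it. The 4 sow coefficients were tested together by F test. The sex effect, and RFI by sex with RFI within each sex, came from fits with sex added. The paired differences of PLTP were tested by exact sign permutation (Python 3.11.15). The scripts were tested on simulated data.

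The 10 genes were named whatever their values. Of the pathway lists, genes with p under 0.05 by RFI or an adjusted p under 0.05 by litter were named, with the gene of smallest RFI p per list otherwise, and the 5 genes most correlated with PLTP and the 3 with each other member. Genes outside this rule (markers, sterol transport genes and ABCG5) were chosen after their values were seen. The members and lists were chosen with earlier results of these data known. Covariates, normalisation, filters, weights, the sow term and leave-outs were varied. The alternatives for the sex effect, for the PLTP interaction and with the fibroblast covariate were added after seeing the data.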

Additional observations from a re-analysis of the deposited data

Results flagged for a closer look

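Single pigs stood apart within their RFI group (n = 10) or litter (n = 4) by Dixon's test in 11 of 140 group and probeset combinations, where chance flags about 1 in 20. The high RFI male of sow 1406 was the lowest high RFI pig for MTTP (10.01) and for APOB on SNOWBALL_034098_st (10.52) and SNOWBALL_022761_st (6.65). The low RFI female of sow 1410 was the lowest of its litter for APOA4 on SNOWBALL_012467_st (6.34) and for APOB on SNOWBALL_022761_st (7.47). In the litter of sow 1406, the low RFI male was highest for FABP1 (9.53), the high RFI male for CD36 (2.75) and the high RFI female for DGAT2 on SNOWBALL_001550_st (7.59), while the high RFI female was lowest for the low FABP1 probeset (1.44). The low RFI male of sow 1411 was the highest of its litter for FABP2 (10.23), and the low RFI male of sow 1435 the lowest for APOA4 on SNOWBALL_023242_s_st (7.20).

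The RFI difference in males differed from that in females, by the interaction test, for PLTP (-1.21), for APOA1 on SNOWBALL_012488_st (0.62) and for DGAT2 on SNOWBALL_001552_st (-0.82), each with an adjusted p of at least 0.822.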

How the results depend on the processing

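Scaling did not move the directions: the median difference over all probesets was -0.01 as deposited and 0.00 or 0.01 after renewed quantile normalisation or centring, and none of the 20 RFI differences changed sign. With the enterocyte covariate 7 of 20 changed sign, none of them called; fewer did under the others.

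The PLTP difference kept its sign in all alternatives. It missed the threshold with the litter-by-sex pair as a replicate block (-0.62, p = 0.0584) and with the enterocyte (-0.60, p = 0.0559) or smooth muscle covariate (-0.60, p = 0.0511), which left 0 probesets called. Leaving out a litter or pig gave differences from -0.80 to -0.49 and 0 to 2 probesets called. The sex contrast of PLTP ranged from -1.69 to -0.56 in leave-outs. The pair block changed no other call of the 20 probesets.

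For litter, 1 probeset (FABP1) passed after adjustment with sex as a further term (adjusted p = 0.0349), with a trended prior (0.047) and in 2 leave-outs, so the range was 0 to 1. Unadjusted, 3 passed with the filter on mean and standard deviation, 3 with the B cell covariate, 2 with the smooth muscle covariate, 0 with the fibroblast covariate, 2 with a gene's probesets averaged (10 genes), and 2 to 9 in leave-outs. The interaction was passed by 6 probesets with the B cell covariate, 5 with the fibroblast covariate, 1 with probesets averaged and 2 to 5 in leave-outs. Sex was passed by 2 without sow, with the filter or with probesets averaged, 7 with the enterocyte covariate and 0 to 6 in leave-outs.

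Of the pathway genes, 3 passed by RFI after centring, and 2 without sow, with sex, with sow as a random block, with a trended prior, with array weights, after renewed quantile normalisation and with the enterocyte or smooth muscle covariate, and 0 to 3 in leave-outs. By litter 7 passed with the B cell, 5 with the smooth muscle and 4 with the fibroblast covariate, and 7 to 15 in leave-outs. The filter dropped FABP2 and the bright FABP1 probeset, and averaging left 10 values. The cause of the other changes was not tested.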
